A study of Mus musculus with 30 samples.

Results

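Natural killer (NK) cells sorted as CD49b+ from skin grafts were compared with NK cells sorted as CD49a+ from the recipients' own skin, in F1 hybrid mice. The comparison used 6 of the 30 RNA sequencing libraries of the study, 3 per group, and every gene with a normalized signal of 10 or more in 3 or more of the 30 libraries, which kept 16045 of the 30587 usable genes in the deposited table. The recipients were C57BL/6xBalb/c F1 mice of genotype NKp46+/iCre.Rosa+/mTmG, and both groups carried these alleles. The graft was m157tgB2m+/- skin, whose m157 transgene encodes a cytomegalovirus protein, and cells were sorted 10 days after grafting. The iCre is expressed from the gene for NKp46 and turns on the GFP of the mTmG reporter, so sorted GFP+ cells were recipient cells with a history of NKp46 expression, with 1 NKp46 allele carrying the knock-in. A further F1 group, CD49a+ NK cells of the graft, shares the tissue with one side and the sort marker with the other. The other model of the study used C57BL/6 NKp46iCre/iCre.RosamTmG/mTmG recipients of m157tgB2m-/- skin, sorted on day 20, and is called B6 here. Strain, reporter dose, donor B2m genotype and day change together between F1 and B6 and cannot be told apart. The labels number the libraries 1 to 3 in each group but do not say whether a library came from 1 animal or a pool. The p-values therefore measure only the spread between libraries within groups, pooled over all 30 libraries, and this spread may be technical. Ages were not given in the labels.

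NK cells are lymphocytes that kill target cells with granzymes and perforin and weigh signals from activating and inhibitory receptors, which in mice include the Ly49 family encoded by the Klra genes. Conventional NK cells circulate and carry the integrin CD49b (Itga2), whereas NK cells and related lymphoid cells that stay in skin and other tissues carry CD49a (Itga1). Ly49H, the product of Klra8, is the activating receptor that binds m157, the protein expressed by the donor skin.

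The sort labels were only partly visible in the transcripts. Itga2 was 15.3, 16.4 and 8.76 in the graft CD49b+ libraries and 14.2, 6.49 and 0.384 in the recipient skin libraries. Itga1 was 2.55, 21.3 and 11.7 in graft CD49b+ cells and 27.8, 57.1 and 9.29 in recipient skin. The groups overlapped for both integrins, with a log2 change of 1.38 for Itga2 (adjusted p = 0.496) and -1.37 for Itga1 (adjusted p = 0.722). Ncr1, which encodes NKp46, was 57, 60.6 and 81.4 against 27, 37.2 and 21.3 without overlap (log2 change 1.21, adjusted p = 0.346), and was 864 to 879 in F1 spleen NK cells.

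Markers of NK cells were far lower in the recipient skin libraries than in the graft libraries. The geometric mean of 12 NK marker transcripts, set to 100% in F1 blood and spleen, was 37, 27.8 and 34.6% in graft CD49b+ cells and 8.58, 9.09 and 6.42% in recipient skin. For 20 pan-leukocyte transcripts the levels were 48.9, 44.2 and 48.9% in the graft and 45.4, 17.3 and 13.4% in recipient skin. Recipient skin library 1 therefore matched the graft libraries in pan-leukocyte level but not in NK level, and it held the macrophage transcripts Lyz2 at 5604 and Cd14 at 1120. Recipient skin library 2 held Flt3 at 1398 and the endothelial transcript Cldn5 at 484, and library 3 held the epithelial transcripts Perp at 1461 and Epcam at 732. The 12 NK markers include Ncr1, given above, and Eomes, Tbx21, Gzma, Prf1, Klrb1c, Klrk1, Klre1 and Tyrobp, which are also results below. Their level therefore does not by itself give the number of NK cells. In these bulk samples fewer NK cells, less RNA per NK cell and lower levels of these markers in each NK cell cannot be told apart. The part of this difference in each result below was not tested.

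**Figure D1:**
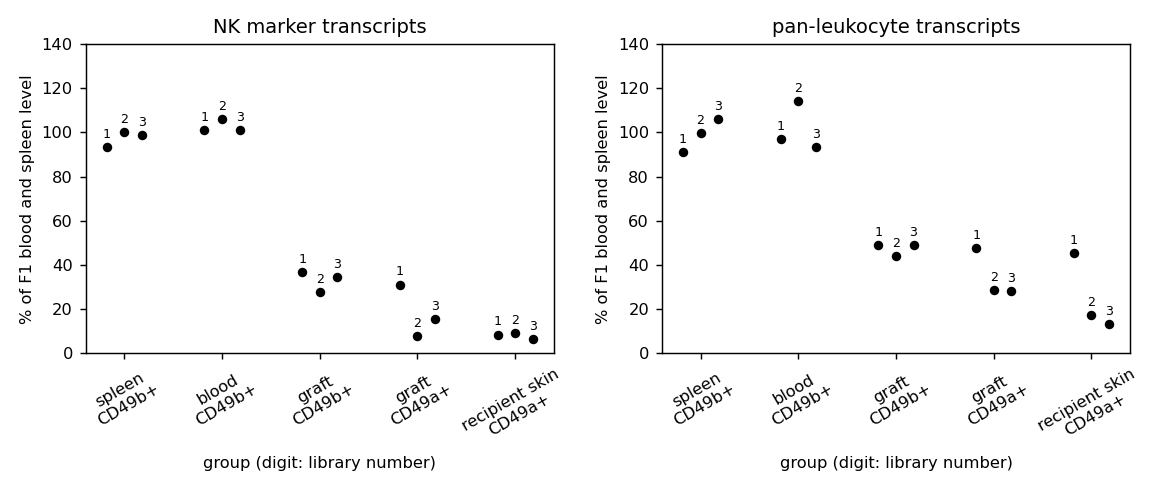
Geometric mean level of 12 NK markers (left) and 20 pan-leukocyte genes (right) in each F1 library, as a percentage of the level in F1 blood and spleen; each point is 1 library and the digit is its number. Recipient skin libraries sit between 6.42 and 9.09% for NK markers, below all graft CD49b+ libraries, while for pan-leukocyte genes recipient skin library 1 sits at 45.4%, within the range of the graft.

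The libraries also differed in other ways. A set of 12 satellite-like transcripts made up 64, 49.9 and 59.2% of all signal in graft CD49b+ libraries. The share was 30.5, 33.2 and 64.4% in recipient skin and 83.4 to 84% in F1 spleen. Outside this set the groups overlapped. The sum of signal there was 953033 to 1096461 in the graft CD49b+ libraries and 939742 to 1062860 in recipient skin. Genes at a signal of 10 or more numbered 9318 to 10384 against 9272 to 10503. These sums are of values the authors had already normalized, so the read depth is unknown. Mitochondrial transcripts made up 1.03 to 1.56% of the signal outside the satellite-like transcripts in the graft and 2.21 to 7.33% in recipient skin. Replicates correlated across genes at r = 0.723 to 0.739 in graft CD49b+ cells and at r = 0.498 to 0.644 in recipient skin, against 0.796 to 0.864 in F1 blood and spleen.

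At an adjusted p under 0.05, 18 of the 16045 genes (0.112%) differed, 14 of them higher in graft CD49b+ NK cells (0.0873%) and 4 lower (0.0249%). The higher genes included several Ly49 receptor genes, the protease gene Cma1, the chromatin organiser Satb1, the survival gene Bcl2, the replication gene Mcm5 and the homing receptor Ccr7. The spread in this fit was shared by all 30 libraries, 12 of them from blood or spleen, where replicates correlated more closely than in skin. When the spread was taken from the 18 skin libraries alone, 1 gene, Cma1, passed. Leaving out single libraries moved the count between 6 and 122. Without graft library 1 the count was 6 and 3 of the 18 genes still passed, without graft library 3 it was 8 with 5 still passing, and without graft library 2 it was 16 with 9 still passing. Without recipient skin library 1, 2 or 3 the counts were 58, 29 and 122, and 12, 15 and 15 of the 18 genes still passed. Over these 6 fits Cma1 and an entry spelled KLRA7, described below, always passed, and Satb1, Klra13-ps and Elmod3 each failed in 1. Klra8, Klra3, Bcl2, Ccr7, Gm10780, Tmem108 and Pop1 each failed in 4 of the 6, and Reck failed in 5. All 18 genes had groups that did not overlap, which was so for 10.7% of all genes (5.38% higher, 5.33% lower). Signs of the list medians below hold on the deposited scale. On a scale set by NK markers every positive one named below turned negative, except that of neutrophil markers (0.82). On a scale set by pan-leukocyte genes those of NK maturation, the Bcl2 family, egress, ribosomal proteins and both interferon lists turned negative. Those of cytokine and chemokine ligands, inhibitory receptors, dendritic cells and macrophages did so too.

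**Figure D2:**
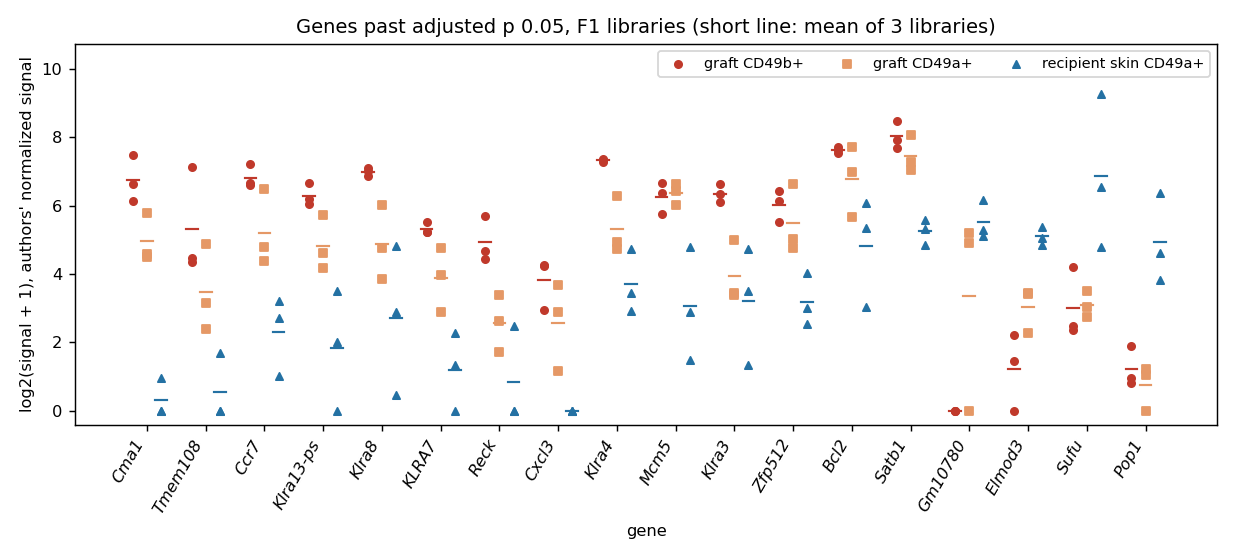
Normalized signal, as log2(signal + 1), of the 18 genes past an adjusted p of 0.05 in each F1 library of graft CD49b+, graft CD49a+ and recipient skin CD49a+ NK cells; short lines are means of 3 libraries. Cma1 was 69.1 to 176 in graft CD49b+ cells and at most 0.949 in recipient skin, and Cxcl3 was at 0 in all 3 recipient skin libraries.

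Of the 14 entries that rose, 4 were Ly49 genes of a cluster on chromosome 6 (GRCm38, GENCODE M21 annotation). Klra8 (Ly49H, chr6:130115226-130129898) was 129, 116 and 135 in graft CD49b+ libraries and 6.46, 27.1 and 0.389 in recipient skin. The graft libraries lay close together and every one was above every recipient library, a log2 change of 4.26 ± 0.83 (SE, n = 3 per group, adjusted p = 0.0256). Klra4, which encodes the activating receptor Ly49D (chr6:130043731-130067271), was 153, 159 and 164 against 6.51, 25.7 and 9.96 (log2 change 3.62 ± 0.65, adjusted p = 0.015). Klra3, which encodes the inhibitory receptor Ly49C (chr6:130323289-130337574), was 67.1, 80.3 and 97.2 against 1.55, 25.7 and 10.4 (log2 change 3.15 ± 0.63, adjusted p = 0.0298). Activating and inhibitory members thus both rose, and recipient skin library 2 held the highest recipient value of all 3 genes. In F1 spleen the same genes held higher values, at 362 to 451 for Klra8, 416 to 518 for Klra4 and 238 to 289 for Klra3.

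The pseudogene Klra13-ps (chr6:130290878-130306428) was 72.1, 64.6 and 99.4 against 0, 3.04 and 10.3 (log2 change 4.46 ± 0.75, adjusted p = 0.00989). An entry spelled KLRA7, which matched no gene name of the annotation, was 45, 36.8 and 36.3 against 0, 1.55 and 3.83 (log2 change 4.12 ± 0.63, adjusted p = 0.00436). The separate entry Klra7, the gene of the inhibitory receptor Ly49G, was 118, 95.7 and 132 against 3.15, 10.6 and 16.2 and did not pass (log2 change 3.62 ± 0.83, adjusted p = 0.0669).

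Ly49 genes are close copies of each other, so the value of any single one is uncertain. Of all 31-base words in the GENCODE transcripts of Klra8, 55% also occur in transcripts of another Klra gene, as do 43.5% of those of Klra3, 32.7% of Klra13-ps, 24.7% of Klra7 and 13.9% of Klra4. Reads over shared words can be assigned to more than 1 gene. The promoter windows of the 3 protein-coding Ly49 genes that passed, from 250 bases before to 50 after the RefSeq start, are shown because these genes moved together. The RefSeq start of Klra3 lies upstream of the gene end given above from GENCODE, so its window falls outside those coordinates. Capitals mark the runs of 12 or more bases present in all 3 windows, on the minus strand of GRCm38.p6 from RefSeq, at chr6:130337577-130337876 for Klra3, chr6:130067222-130067521 for Klra4 and chr6:130129849-130130148 for Klra8.
Klra3: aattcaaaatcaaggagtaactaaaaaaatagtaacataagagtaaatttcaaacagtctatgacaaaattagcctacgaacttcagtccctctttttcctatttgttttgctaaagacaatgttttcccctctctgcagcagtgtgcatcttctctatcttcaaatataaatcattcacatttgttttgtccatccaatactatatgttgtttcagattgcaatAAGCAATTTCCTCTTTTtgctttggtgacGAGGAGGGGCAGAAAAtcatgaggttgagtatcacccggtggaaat
Klra4: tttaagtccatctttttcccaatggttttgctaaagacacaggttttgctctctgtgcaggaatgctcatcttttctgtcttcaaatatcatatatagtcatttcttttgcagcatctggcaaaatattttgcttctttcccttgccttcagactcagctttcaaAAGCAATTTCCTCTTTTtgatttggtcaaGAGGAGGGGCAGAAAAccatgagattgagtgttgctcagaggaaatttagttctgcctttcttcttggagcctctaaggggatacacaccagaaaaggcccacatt
Klra8: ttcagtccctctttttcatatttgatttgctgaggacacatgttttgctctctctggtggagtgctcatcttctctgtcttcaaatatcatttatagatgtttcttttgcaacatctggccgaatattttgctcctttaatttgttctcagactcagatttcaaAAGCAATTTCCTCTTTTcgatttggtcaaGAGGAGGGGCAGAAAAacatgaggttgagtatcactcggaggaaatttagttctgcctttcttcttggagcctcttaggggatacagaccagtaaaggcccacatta

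Both runs stand in the same order in the 3 windows. The first, AAGCAATTTCCTCTTTT, occurred on either strand in 8 of all 32851 promoter windows of the table (0.0244%), 7 of them windows of Klra genes. The second, GAGGAGGGGCAGAAAA, occurred in 7 windows (0.0213%), all 7 of Klra genes. Aligned end to end, the Klra4 and Klra8 windows were 86% identical, whereas Klra3 was 48.1% identical to Klra4 and 48.2% to Klra8; the shared runs lie further along in the Klra3 window. Neither TGTGGT, the core bound by Runx factors, present in 16.8% of all windows, nor AGGTGT, a T-box core, present in 13.7%, was found on either strand in the 3 windows. The runs were picked after the sequences had been seen, and a match is a description only.

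Most other NK receptor genes had a positive change that did not pass. Of 29 receptor genes, all tested, 3 rose and 0 fell at an adjusted p under 0.05, against 0.0873% and 0.0249% of all genes, and the 3 that rose were Klra8, Klra4 and Klra3. At an unadjusted limma p under 0.05, 10 were higher and 0 lower, against 4.56% and 3.87% of all genes. The median log2 change of the list was 1.33, beside 0.07 for all genes. A positive change was seen for 28 of 29 members, beside 8525 of 16045 for all genes. Klrb1c, the gene of NK1.1, was 134, 104 and 174 against 52, 42 and 35.9 (log2 change 1.62, adjusted p = 0.293). Klre1, which encodes a lectin-like NK receptor, was 131, 111 and 136 against 27.9, 36.2 and 36.9 (log2 change 1.88, adjusted p = 0.229). Klrk1, the gene of NKG2D, was 215, 180 and 297 against 110, 126 and 88.4 (log2 change 1.07, adjusted p = 0.787). Klrc1, the gene of the inhibitory receptor NKG2A, gave overlapping groups of 76.5, 49.1 and 94.7 against 83.1, 54.6 and 53.7 (log2 change 0.18, adjusted p = 0.997). The values thus ran from well separated for Ly49 genes to overlapping for Klrc1. NK marker genes as a whole were also higher without overlap, 12 of 12 (5.38% of all genes), at a median log2 change of 1.75, with 0 past the adjusted threshold and 8 at an unadjusted limma p under 0.05. They share Klrb1c, Klre1 and Klrk1 with the receptor list, so these lists are not separate evidence.

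Adaptors and kinases that carry the signals of these receptors held higher values in the graft but did not pass. Of 17 tested, 0 passed in limma after adjustment, and the median log2 change was 1.49. At an unadjusted limma p under 0.05, 9 were higher and 1 lower, against 4.56% and 3.87% of all genes. Syk, the kinase that binds phosphorylated ITAM motifs, was 669, 176 and 170 against 78.4, 8.82 and 1.21 (log2 change 4.51 ± 1.06, adjusted p = 0.0727). Tyrobp, the adaptor DAP12 that pairs with Ly49H and Ly49D, was 485, 383 and 421 against 259, 97.9 and 40 (log2 change 2.08, adjusted p = 0.317). Graft library 1 held the highest Syk value. Plcg2, a phospholipase of the same pathway, was the member that was lower, at 26.5, 17 and 30.5 against 22.7, 89 and 143 with overlapping groups (log2 change -1.43, adjusted p = 0.527).

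Cma1, which encodes a chymase made by mast cells and also found in mature mouse NK cells, gave the largest change among the 18 genes. It was 176, 97.1 and 69.1 in graft CD49b+ cells and 0, 0 and 0.949 in recipient skin (chr14:55941451-55944675), a log2 change of 6.42 ± 0.64 (adjusted p = 2.01e-06). It passed under all 19 alternative settings. F1 spleen NK cells, a group without skin tissue, held 171, 193 and 196. Of 8 other mast cell and basophil markers, 3 could be tested, and their sum was 118, 48.5 and 19.2 in the graft, in the same order as Cma1, and 1.67 to 34.1 in recipient skin. The mast cell gene Cpa3 was 0, 26.4 and 0 in the graft and 3.62, 16.2 and 0 in recipient skin. The part of mast cells or basophils in the Cma1 result was not tested. Of 14 NK maturation genes tested, Cma1 was the member that passed, and the median log2 change was 0.55. Klrg1, an inhibitory receptor of mature NK cells, overlapped at 61.2, 43.3 and 65.8 against 14.4, 49.4 and 18.1 (log2 change 1.21, adjusted p = 0.707).

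Satb1, which organises chromatin in lymphocytes (chr17:51736187-51833290), was 352, 206 and 238 against 46.9, 27.9 and 39.2 (log2 change 2.76 ± 0.45, adjusted p = 0.00776). The graft values also stood above F1 spleen, at 106 to 156. Among 22 lymphocyte transcription factors tested, 0 passed in limma, with a median log2 change of 1.13. At an unadjusted limma p under 0.05, 4 were higher and 1 lower, against 4.56% and 3.87% of all genes. Eomes, a T-box factor that marks conventional NK cells, was 118, 75.6 and 78.7 against 7.23, 30.1 and 0.989 (log2 change 3.49 ± 0.98, adjusted p = 0.168). Tbx21, the gene of T-bet, was 93.8, 88.9 and 57.2 against 20.9, 30.2 and 54.5 (log2 change 1.24, adjusted p = 0.778). Neither factor passed, although neither had overlapping groups.

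Bcl2, which blocks mitochondrial apoptosis (chr1:106538178-106714274), was 198, 184 and 208 against 66, 39.6 and 7.14 (log2 change 2.82 ± 0.58, adjusted p = 0.037). Of 14 Bcl2 family genes tested it was the one that passed, and the median log2 change was 0.62. Bad, which promotes apoptosis, went the other way, at 2.13, 2.52 and 3.45 against 29.6, 13.3 and 52.2 (log2 change -2.96 ± 0.69, adjusted p = 0.0714). Bcl2l11, the gene of the pro-apoptotic protein BIM, overlapped at 1070, 213 and 347 against 216, 302 and 83.1 (log2 change 1.29, adjusted p = 0.569). The family therefore held changes of both signs.

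Mcm5 (chr8:75109569-75128439), a subunit of the helicase that unwinds DNA at replication forks, was 99.6, 81.8 and 52.6 against 1.81, 26.7 and 6.44 (log2 change 3.20 ± 0.59, adjusted p = 0.0173). Of 37 cell cycle genes, 1 rose and 0 fell after adjustment (0.0873% and 0.0249% of all genes), 16 were higher and 0 lower at an unadjusted limma p under 0.05 (4.56% and 3.87% of all genes), and the median log2 change was 1.29. The values of 2 further subunits of this helicase did not pass. Mcm7 was 92.9, 89.8 and 88 against 3.76, 0 and 41 (log2 change 3.96 ± 0.90, adjusted p = 0.0606). Mcm6 was 133, 278 and 144 against 28.9, 9.89 and 24.9 (log2 change 3.11 ± 0.75, adjusted p = 0.0834). Changes were smaller for other markers of dividing cells. Top2a, which untangles DNA before division, was 143, 115 and 66.2 against 64, 60.8 and 18.1 (log2 change 1.29, adjusted p = 0.557). Mki67, the proliferation marker Ki-67, overlapped at 57.3, 78.7 and 41.1 against 85, 79.1 and 4.66 (log2 change 0.78, adjusted p = 0.896).

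Ccr7, the receptor that guides lymphocytes to lymph nodes along Ccl19 and Ccl21 (chr11:99144196-99155077), was 96.4, 99.6 and 146 against 5.58, 8.32 and 1.01 (log2 change 4.51 ± 0.90, adjusted p = 0.0298). F1 spleen NK cells held 5.73, 0 and 0, so the graft values stood above both. In limma the Ccr7 change did not pass with a pseudocount of 0.5 (adjusted p = 0.0726) or a filter of 50 (adjusted p = 0.0635). Dendritic cells also express Ccr7. Their 10 tested markers summed to 294 to 771 in the graft and 802 to 1609 in recipient skin. Most of that sum was Flt3 in recipient skin library 2 and Epcam, named above as an epithelial transcript, in library 3. The sum therefore does not by itself give the level of dendritic cells. Of the 10, 7 had a positive change, beside 8525 of 16045 for all genes, with a median of 0.58. Markers of T cells, another kind of lymphocyte, summed to 925, 670 and 827 in the graft and 516, 381 and 359 in recipient skin. They summed to 589 to 717 in F1 spleen NK cells. Of the 12 tested, 8 had a positive change. The part of dendritic cells or T cells in the Ccr7 result was not tested. Of 15 egress and recirculation genes tested, Ccr7 was the member that passed, with a median log2 change of 0.99. S1pr5, a receptor that NK cells use to leave tissue, was near 0 in both groups, at 4.48, 0 and 8.8 against 1.72, 1.55 and 0. Cx3cr1, a chemokine receptor of circulating NK cells, was lower in the graft at 3.15, 20.8 and 12.1 against 27.2, 33.7 and 30.3, without passing (log2 change -1.56, adjusted p = 0.48).

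The remaining genes that rose have no role fixed in the lists. Cxcl3, a chemokine that attracts neutrophils, was 17.8, 6.74 and 18.3 in the graft and listed at 0 in all 3 recipient skin libraries (adjusted p = 0.015). Neutrophil markers summed to 918, 1177 and 242 against 509, 253 and 218, which overlapped. Of the 9 tested, 7 had a positive change, beside 8525 of 16045 for all genes, with a median log2 change of 1.94. Among these 9, 2 were higher at an unadjusted limma p under 0.05, against 4.56% of all genes, and 0 passed after adjustment. Graft library 2 held the highest neutrophil sum and the lowest Cxcl3 value of the graft. The part of neutrophils in the Cxcl3 result was not tested. Reck, a membrane inhibitor of matrix metalloproteinases, was 24.4, 51.1 and 20.9 against 0, 0 and 4.63 (log2 change 4.11 ± 0.82, adjusted p = 0.031). Zfp512, a zinc finger gene, was 85.4, 44.9 and 68.5 against 7.03, 4.77 and 15.3 (log2 change 2.84 ± 0.55, adjusted p = 0.0256). Tmem108, a transmembrane protein gene, was 140, 21 and 19.3 against 0, 2.22 and 0 (log2 change 4.75 ± 0.97, adjusted p = 0.037). Its mean rests largely on graft library 1.

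The 4 genes that fell were low in every graft CD49b+ library. Sufu, an inhibitor of hedgehog signalling (chr19:46396896-46488804), was 4.54, 17.4 and 4.13 against 611, 92.2 and 26.6 (log2 change -3.85 ± 0.73, adjusted p = 0.0232). Elmod3 (chr6:72565922-72598413) was 0, 3.63 and 1.73 against 40.6, 28 and 32.3 (log2 change -3.88 ± 0.66, adjusted p = 0.00989). Pop1, a protein subunit of the ribonucleases P and MRP (chr15:34495304-34530648), was 2.7, 0.933 and 0.764 against 81, 13.1 and 23.7 (log2 change -3.72 ± 0.71, adjusted p = 0.0256). The pseudogene Gm10780 was listed at 0 in all 3 graft libraries and was 38.1, 70.6 and 33.7 in recipient skin (adjusted p = 0.0298). Recipient skin library 1 held the highest Sufu and Pop1 values.

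Cytotoxic effector transcripts summed to 17750, 9558 and 10381 in the graft and 2997, 2484 and 15696 in recipient skin, where library 3 stood above graft libraries 2 and 3 and held 12048 of Ctsd, a lysosomal protease of many cell types. Of 19 such genes tested, 0 passed in limma after adjustment, and the median log2 change was 1.35. At an unadjusted limma p under 0.05, 8 were higher and 1 lower, against 4.56% and 3.87% of all genes. Gzma, the gene of granzyme A, was 11495, 4829 and 4412 against 215, 177 and 258 (log2 change 4.86 ± 1.27, adjusted p = 0.121), without overlap. In limma it did pass with a pseudocount of 10 (adjusted p = 0.0373) and with library weights (adjusted p = 0.0224). It also passed with the libraries of the contrast alone in the fit (adjusted p = 0.0162), but under no other planned setting. Gzmb, the gene of granzyme B, was 1663, 1194 and 1284 against 108, 240 and 468 (log2 change 2.56, adjusted p = 0.587). Prf1, the gene of the pore-forming protein perforin, was 480, 564 and 837 against 136, 94.1 and 189 (log2 change 2.18, adjusted p = 0.416). Every graft library was above every recipient library for these 3 genes. The member that was lower was Lamp1, a lysosomal membrane protein made by many cell types, at 49.9, 39.4 and 19.9 against 229, 59.8 and 1730 (log2 change -3.05, adjusted p = 0.089). Among ligands, Ccl5, a chemokine that attracts lymphocytes, was 768, 817 and 1472 against 70.9, 315 and 90.4 (log2 change 2.93 ± 0.78, adjusted p = 0.135).

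Tissue residency genes had a median near that of all genes. Of 22 tested, 0 passed in limma, and the median log2 change was -0.17. At an unadjusted limma p under 0.05, 2 were higher and 1 lower, against 4.56% and 3.87% of all genes. Itgae, the integrin CD103 that binds epithelial E-cadherin, was 2.48, 1.71 and 8.28 against 16.1, 57.4 and 117 (log2 change -3.47 ± 0.98, adjusted p = 0.169). Ccr8, a chemokine receptor of skin lymphocytes, was listed at 0 in all 3 graft CD49b+ libraries and was 13.7, 5.62 and 36.7 in recipient skin (adjusted p = 0.0748). Cd69, which holds lymphocytes in tissue by countering S1P receptors, was instead higher in the graft, at 31.5, 25.9 and 61.7 against 5.11, 12.2 and 1.45 (log2 change 2.70 ± 0.75, adjusted p = 0.166). Rgs1, a brake on chemokine receptor signals, was 647, 606 and 619 against 371, 315 and 442 (log2 change 0.74, adjusted p = 0.932). The members thus pointed in both directions.

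The list of immediate early and dissociation stress genes, which can also be induced while tissue is taken apart, had a negative median. Of 26 tested, 0 passed in limma, and the median log2 change was -0.52. At an unadjusted limma p under 0.05, 1 was higher and 5 lower, against 4.56% and 3.87% of all genes. A positive change was seen for 9 of the 26, and for 8525 of all 16045 genes. Atf3, a stress-induced transcription factor, was 5.82, 3.32 and 6.63 against 214, 274 and 31.6 (log2 change -4.36 ± 1.00, adjusted p = 0.0669). Fos, an AP-1 subunit, was 13.7, 30.4 and 34.6 against 324, 147 and 57.4 (log2 change -2.47 ± 0.61, adjusted p = 0.0846). Dusp1, a phosphatase of MAP kinases, was 96.4, 120 and 103 against 650, 274 and 450 (log2 change -2.01 ± 0.51, adjusted p = 0.0958). Recipient skin was higher in every library for these 3 genes.

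Further genes and markers of other skin cells also differed between libraries without passing. Col2a1, a cartilage collagen chain, was 0, 0.512 and 0 against 58.6, 106 and 47.4 (log2 change -5.88 ± 1.27, adjusted p = 0.0555). Cst3, a protease inhibitor made by many cell types, was 67.6, 94.7 and 48.9 against 248, 348 and 8112 (log2 change -3.69 ± 0.85, adjusted p = 0.0669). Keratinocyte markers, 8 of 12 tested, summed to 11.1, 31.3 and 116 in the graft and 37.6, 346 and 2024 in recipient skin, all 8 with a negative change and a median of -2.48. Fibroblast markers summed to 111 to 258 in the graft and 269 to 2078 in recipient skin. Macrophage and monocyte markers summed to 132 to 702 in the graft and to 8101, 655 and 126 in recipient skin, which overlapped. Of the 13 tested, 9 had a positive change, beside 8525 of 16045 for all genes, and the median was 0.13. Recipient skin library 3 held the highest sum of the first 2 lists and library 1 of the last. None of the 3 lists held a gene past the adjusted threshold in limma. At an unadjusted limma p under 0.05, 2 keratinocyte, 1 fibroblast and 0 macrophage markers were lower, against 3.87% of all genes.

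**Figure D3:**
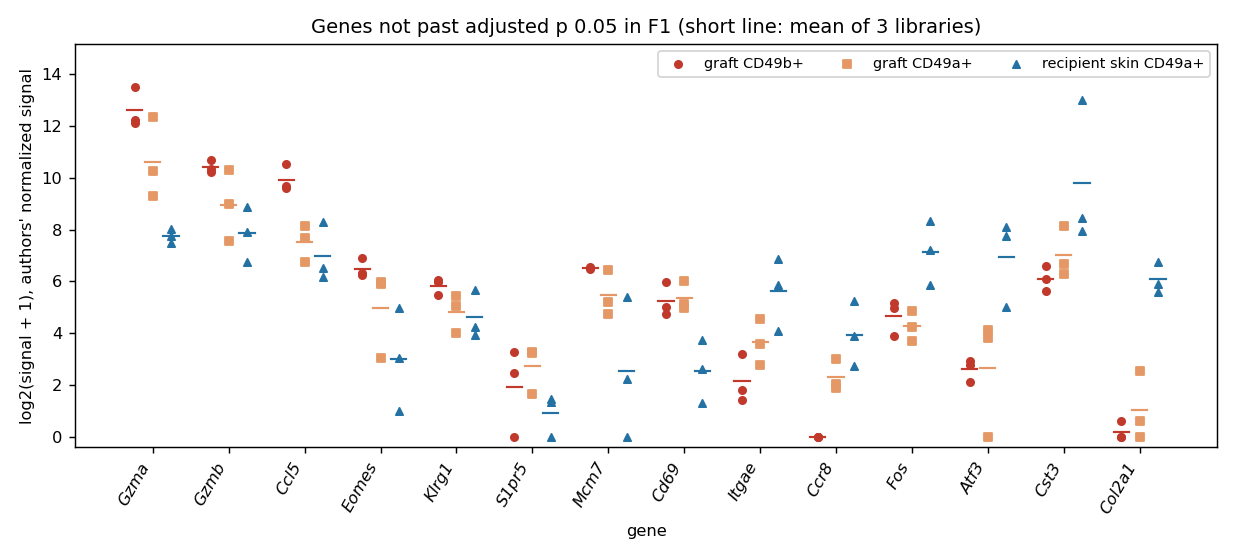
Normalized signal, as log2(signal + 1), of 14 genes that did not pass the adjusted threshold in F1, in each library of graft CD49b+, graft CD49a+ and recipient skin CD49a+ NK cells; short lines are means of 3 libraries. Gzma was 4412 to 11495 in graft CD49b+ cells and 177 to 258 in recipient skin, Cst3 reached 8112 in 1 recipient skin library, and Klrg1 overlapped.

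Among the remaining lists, ribosomal protein genes had a positive change in 24 of 24, beside 8525 of 16045 for all genes. Their median was 0.60, and 4 were higher at an unadjusted limma p under 0.05. Type I interferon response genes had a median log2 change of 0.28 over 28 genes tested, and glycolysis and hypoxia genes -0.13 over 28. Cytokine and chemokine ligands had a median of 0.99 over 15, inhibitory receptors and chronic stimulation genes 0.81 over 16, interferon-gamma-induced genes 0.66 over 26 and heat shock chaperones -0.42 over 14. TGF-beta response genes had a median of -0.02 over 16 and oxidative phosphorylation genes -0.09 over 22. In each of these lists 0 genes passed the adjusted threshold in limma. The corresponding counts at an unadjusted p under 0.05 were 1 higher and 1 lower for type I interferon, 1 higher for glycolysis and hypoxia, 2 lower for TGF-beta and 1 lower for oxidative phosphorylation. They were 3 higher for ligands, 4 higher and 1 lower for inhibitory receptors, 5 higher for interferon-gamma-induced genes and 0 for heat shock chaperones. Across all genes 4.56% were higher and 3.87% lower at this unadjusted threshold.

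CD49a+ NK cells of the grafts had mean log2 values between those of the other F1 groups for 16 of the 18 genes, which had been picked for their distance between those groups. These comparisons share libraries with the main one, so their values are given side by side. Klra8 was 63.8, 13.5 and 26 in graft CD49a+ cells, with a log2 change of 2.15 against recipient skin and of 2.12 for graft CD49b+ against graft CD49a+. Satb1 was 265, 154 and 131 (log2 changes 2.20 and 0.56). Mcm5 was 84.5, 98.3 and 64.3, no lower than in graft CD49b+ cells (log2 changes 3.30 and -0.10). Between graft CD49a+ and recipient skin, where 0.0249% of genes passed, Cma1 (log2 change 4.63, adjusted p = 0.000685), Mcm5 (adjusted p = 0.0215) and Pop1 (log2 change -4.18, adjusted p = 0.0164) passed. Between the sorted populations within the graft, where 0.00623% of genes passed, the lowest adjusted p of the 18 genes was 0.533, for Klra3.

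In B6, where graft CD49b+ and recipient skin CD49a+ cells differed in 277 genes (1.73%; 1.42% higher, 0.305% lower), 9 of the 14 genes that rose in F1 also rose and 2 others had a positive fitted change. The models share no libraries, but they share the estimate of spread. Klra4 was 286, 644 and 351 against 13.6, 1.57 and 12.3 in B6 (log2 change 5.67 ± 0.65, adjusted p = 1.86e-05). Cma1 was 39.8, 72.1 and 35.4 against 0, 0 and 11.8 (log2 change 4.35 ± 0.64, adjusted p = 0.000465). Klra8, Klra3, Klra13-ps, the KLRA7 entry, Satb1, Mcm5 and Ccr7 made up the rest of the 9. Bcl2 overlapped in B6, at 87.9, 144 and 44.9 against 33.8, 57.6 and 84.3 (log2 change 0.59 ± 0.58, adjusted p = 0.653). Cxcl3 was listed at 0 in all 6 B6 libraries. Of the 4 genes that fell in F1, 0 passed in B6 in limma and all 4 had a negative fitted change; Sufu was 16.4, 34.6 and 18.4 against 29.1, 35.8 and 28.2 there. The test of the difference between models passed for none of the 18 genes, with an adjusted p of 0.254 for Zfp512, 0.365 for Bcl2 and 0.113 for Tmem108, the lowest of the 18. Across all 16045 genes the changes in F1 and B6 were weakly related (Pearson r = 0.11, Spearman rho = 0.10, across genes, which are not independent replicates).

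Genes that passed in B6 but not in F1 included effector and residency genes with changes in the same direction. Gzma had a log2 change of 6.41 in B6 (adjusted p = 0.00798) and 4.86 in F1, and Itgae one of -5.35 (adjusted p = 0.00428) and -3.47. The difference between models was not past the threshold for either (adjusted p = 0.799 and 0.683). It passed for 5 genes (0.0312%), all with the higher change in B6. Nod1, an intracellular sensor of bacterial peptidoglycan (chr6:54923949-54972612), was 20.6, 12.6 and 28.4 against 22.1, 16.6 and 10.7 in F1, and 37.4, 48.9 and 56.3 against 0, 0 and 0 in B6. Ascc1 was 3.89, 1.82 and 8.74 against 19, 15.8 and 40.3 in F1, and 9.46, 26.6 and 10.9 against 0, 0 and 0 in B6. For Nod1 and Ascc1 the B6 recipient skin libraries were listed at 0 throughout, while the F1 recipient skin libraries were not.

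**Figure D4:**
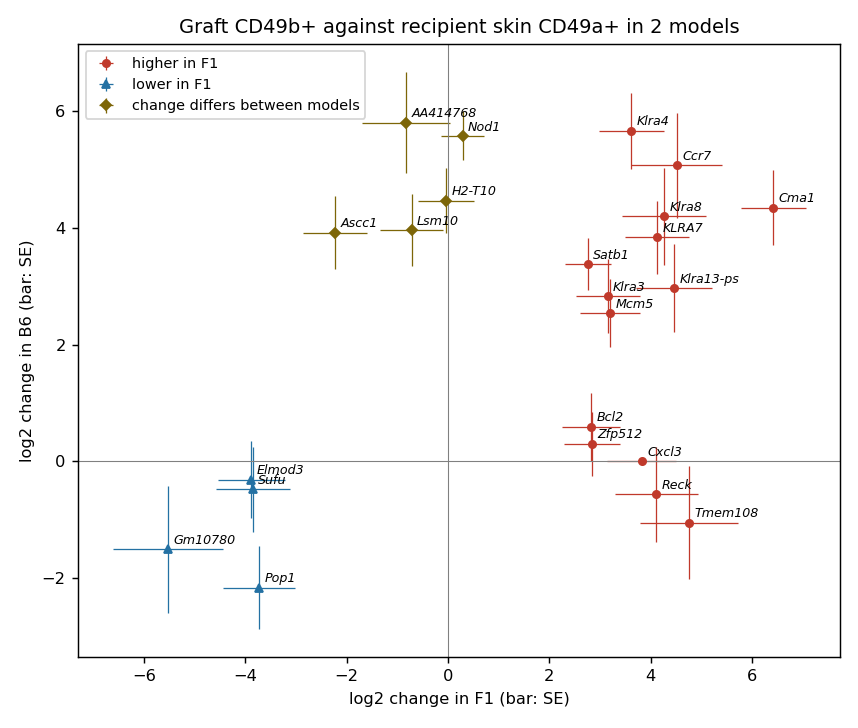
Log2 change of graft CD49b+ against recipient skin CD49a+ NK cells in F1 (horizontal) and B6 (vertical) for the 14 genes higher and 4 genes lower in F1 and the 5 genes whose change differed between the models; bars are standard errors. Nod1 lies near 0 in F1 (0.29) and at 5.58 in B6, while Cma1 is high in both (6.42 and 4.35).

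The scale chosen changes the sign of many list medians. When each library was scaled to its pan-leukocyte transcripts the median log2 change of all genes moved from 0.07 to -0.92, and when scaled to its NK markers to -1.78, so lists are also given relative to that median. Each scale divides a library by a single factor, so the distance of a list from that median changes little by design. These distances are therefore no test of how the results depend on the scale. The NK scale is also set in part by members of the NK receptor list. NK receptor genes were 1.26 above the median of all genes as deposited, 1.38 on the pan-leukocyte scale and 1.38 on the NK scale. Cell cycle genes were 1.22, 1.17 and 1.10 above it. Immediate early genes were at -0.59, -0.70 and -0.78 relative to it, and keratinocyte markers at -2.55, -2.68 and -2.40. As absolute medians, NK receptors changed sign, from 1.33 to 0.46 on the pan-leukocyte scale and -0.40 on the NK scale, and cell cycle genes went from 1.29 to 0.25 and -0.68. All 14 genes that rose kept a positive change on both scales. Cma1 still passed on both (adjusted p = 0.00612 and 0.0058), Klra8 passed on the NK scale (log2 change 2.69, adjusted p = 0.0332) but not on the pan-leukocyte scale (3.55, adjusted p = 0.0695), and Satb1 passed on neither (1.68 and 0.74, adjusted p = 0.264 and 0.383).

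**Figure D5:**
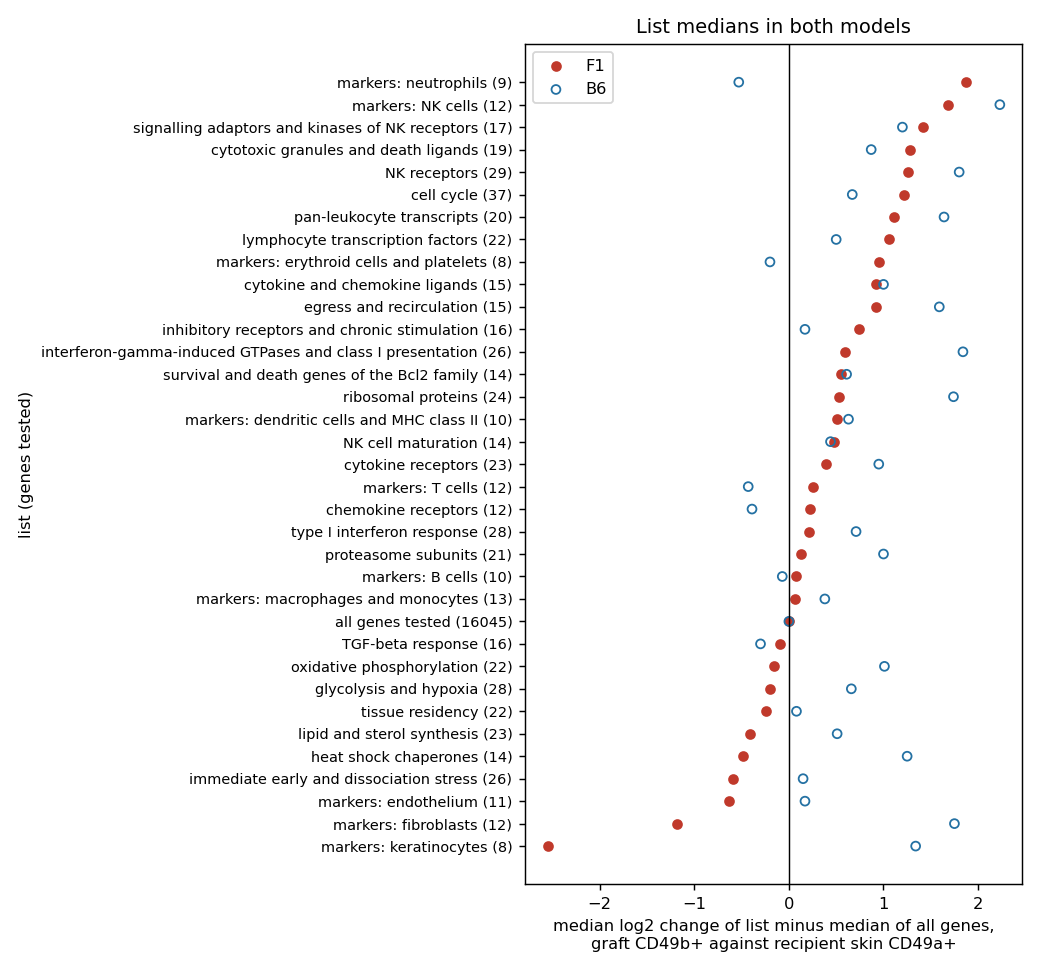
Median log2 change of each gene list minus the median of all genes, graft CD49b+ against recipient skin CD49a+, in F1 (filled) and B6 (open); the number of genes tested is in parentheses. NK receptors lie at 1.26 in F1 and 1.80 in B6, and keratinocyte markers at -2.55 in F1 and 1.34 in B6.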

How the data were processed

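The deposited table holds DESeq2-normalized signal per gene, made by the authors from Salmon quantification on GRCm38 (mm10), per the submitters' processing notes; program versions, the gene models used and any filtering were not stated in the labels or file. Values were not whole multiples of 1 read (20.3 to 22.5% per library within a tolerance of 0.1), so they were treated as signal and no count test was run. Of 30616 entries, 27 had turned into dates, 1 had no name and 1 held a letter for a number, leaving 30587; 2 numeric columns of no sample were not used. Genes were annotated with GENCODE M21 (28581 matched by name).

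Changes were tested with limma 3.58.1 in R 4.3.3 on log2(signal + 1), fitting a mean for each group to the 30 libraries together, with moderated variances (trend, robust) and p-values adjusted by Benjamini-Hochberg over 16045 genes (14150 protein coding). Fold changes are on that scale and understate low genes. The code was tested on simulated data. Alternatives to the pseudocount, filter, scale, library set and block are given in the closing section. Named genes were the 12 largest rises and falls past the threshold with a mean of 50 or more, filled by the smallest p, plus up to 4 per list and 8 for the difference between models; genes outside this rule were added after their values were seen. Members and lists were chosen with earlier results of these data known.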

Additional observations from a re-analysis of the deposited data

Results flagged for a closer look

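The change between graft CD49b+ and recipient skin CD49a+ NK cells differed between F1 and B6 for 5 genes by the limma contrast of contrasts. The F1 minus B6 log2 difference was -5.29 for Nod1 (adjusted p = 2.01e-05), -6.15 for Ascc1 (0.00139 adjusted), -4.51 for the class I pseudogene H2-T10 (0.0242 adjusted), -6.64 for the pseudogene AA414768 (0.0371 adjusted) and -4.69 for Lsm10 (0.0371 adjusted). H2-T10 was 17.6, 10.3 and 16.4 against 6.81, 25.1 and 18.6 in F1, and 45.2, 62.6 and 47.4 against 0, 1.07 and 5.27 in B6. AA414768 was 124, 15.8 and 104 in B6 graft libraries and at most 0.913 in F1 graft libraries. Lsm10 was 9.01, 14.3 and 23.9 in B6 graft libraries and listed at 0 in all 3 B6 recipient skin libraries.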

How the results depend on the processing

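The F1 count of 18 genes was 55 (28 higher, 27 lower) with a pseudocount of 10 and 10 (10 and 0) with a filter of 50. It was 44 (24 and 20) with quantile normalization and 50 (38 and 12) with library weights. With the 18 skin libraries alone the count was 1. With the 6 libraries of the contrast alone it was 8 (8 and 0), and only 1 of the 18 genes, Cma1, was among them. Gzma, not among the 18, also passed in that limma fit (adjusted p = 0.0162). Without single libraries it was 6 to 122. At the same total outside satellite-like transcripts it was 15 (9 and 6). On the pan-leukocyte scale it was 16 (1 and 15), with 5 of the 18 genes shared. Of 2 settings added after seeing the data, the NK scale gave 1301 (11 and 1290) and leaving out F1 recipient skin libraries 2 and 3 together, which assumes that the lone library varies like the other groups, gave 273 (221 and 52). The B6 count of 277 was 92, 171, 13 and 0 at the same total, on the pan-leukocyte scale, with the skin libraries alone and with the contrast alone (890 at an unadjusted limma p under 0.05 in the last), 5426 on the NK scale and 88 to 1954 without single libraries. The count of 5 for the difference was 2 with a filter of 50, 2 on either cell scale, 3 with library weights, 3 with the replicate block, 0 with the skin libraries alone (753 unadjusted), 0 with the contrast alone (653 unadjusted), 109 without recipient libraries 2 and 3, and 2 to 302 without single libraries. The cause of these shifts was not tested, except that single-library and contrast-only fits use fewer samples. No call among the 18 genes reversed in any setting. Among 167 other named genes, 17 changed sign on the pan-leukocyte scale and 55 on the NK scale. Deviations of same-numbered libraries correlated at -0.06, 0.10 and 0.04 in F1 and at 0.16, 0.41 and 0.04 in B6; the labels do not say what the numbers share, and the samples were not treated as paired. With the replicate block the F1 count was 17, with 16 genes shared. Read depth is unknown, so no interval for counting error could be given.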
